A study of Mus musculus with 12 samples.

Results

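The genes encoding the proteasome were followed in CD11b dendritic cells (DCs) of mice from a study of established lung fibrosis, in which 6 of the 12 libraries came from mice given an empty vector. Rows of the gene count table were taken when the symbol began with Psma, Psmb, Psmc, Psmd, Psme, Psmf or Psmg followed by a number. Out of 24391 genes 50 matched, and none of the 50 was a pseudogene. They comprised 7 genes of the 20S alpha ring, 7 constitutive genes of the 20S beta ring, 5 immunoproteasome and PA28 genes (Psmb8, Psmb9, Psmb10, Psme1 and Psme2) and 17 subunit genes of the 19S particle. A further 7 genes encode assembly chaperones, 3 encode other activators or an inhibitor (Psme3, Psme4 and Psmf1), and 2 are the tissue-specific 20S genes Psma8 of testis and Psmb11 of thymus. Psme2b, an intronless copy of Psme2, matched as well. So did Psmc3ip, which encodes a meiotic recombination factor and no proteasome subunit.

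The proteasome degrades ubiquitin-tagged proteins inside a barrel, the 20S core, whose outer rings are built from alpha subunits and whose inner rings are built from beta subunits. A 19S cap recognises and unfolds the substrate, with an ATPase ring at its base and a lid that removes the ubiquitin chain. In cells exposed to interferon, and constitutively in many antigen-presenting cells, the catalytic beta subunits Psmb6 (beta1), Psmb7 (beta2) and Psmb5 (beta5) are replaced in new particles by Psmb9, Psmb10 and Psmb8. The resulting immunoproteasome, together with the PA28 activator built from Psme1 and Psme2, yields peptides suited to presentation on MHC class I.

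All mice were wild-type C57BL/6J animals aged 8 to 12 weeks. A replication-deficient adenovirus was given into the trachea, and it either carried no insert (AdCL) or carried the gene for biologically active porcine TGF-β1 (AdTGFb1). Each vector gave 6 libraries, 3 from experiment 1 (AdCL DC 7, 8 and 9, and AdTGFb1 DC 14, 52 and 54) and 3 from experiment 3 (AdCL DC 943, 944 and 949, and AdTGFb1 DC 954, 955 and 956). The time from vector to harvest and the number of animals behind a library were not stated in the material at hand, so p-values measure the spread between these libraries.

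Library totals ran from 10099912 to 15594546 counts, and 3 counts corresponded to 0.181 to 0.31 CPM (counts scaled to a common library total). Markers of conventional DCs (8 genes) were present in every library. Their sums were 9036 to 10627 CPM in AdCL and 7345 to 8056 CPM in AdTGFb1 of experiment 1. In experiment 3 they were 9526 to 12884 CPM against 8307 to 10293 CPM. Over both experiments 5 of the 8 were lower and 1 higher with AdTGFb1 at an edgeR adjusted p below 0.05, with a median log2 fold change of -0.86. Of all genes tested 10.4% were lower and 6.78% higher. Summed markers of mature migratory DCs (8 genes) were 5901 to 6455 CPM in AdCL and 1776 to 2289 CPM in AdTGFb1 of experiment 1, and 4887 to 8303 CPM against 2041 to 3670 CPM in experiment 3. Summed macrophage and monocyte markers (11 genes) were 2740 to 3585 CPM in AdCL and 7246 to 9883 CPM in AdTGFb1 of experiment 1, and 5900 to 7480 CPM against 12881 to 16495 CPM in experiment 3. Much of these sums was Apoe. It was at 1012 to 1654 CPM against 3908 to 6192 CPM in experiment 1, and 2799 to 3885 CPM against 7977 to 11002 CPM in experiment 3. Over both experiments 7 of the 11 were called higher, 0 lower and 4 neither, with a median log2 fold change of 1.03. None of these marker genes was at 0 in a whole group, and their part in the results below was not tested. Summed endothelial markers (10 genes) were 332 to 864 CPM in AdCL of experiment 1 and 82.6 to 270 CPM in the other 9 libraries. By Xist and the Y-linked gene Ddx3y, AdCL DC 7, 8 and 9 and AdTGFb1 DC 14 came from males and the other 8 libraries from females. In bulk libraries of this kind, fewer cells of a type and less RNA per cell cannot be told apart.

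The 250 bases before the RefSeq transcription start (assembly GRCm38.p6) were searched, together with the 50 bases after it, for the interferon-stimulated response element core (GAAA, any 2 bases, GAAA), the gamma-activated site TTCNNNGAA and the antioxidant response element core TGACNNNGC, each on both strands and with overlapping matches kept. Stretches outside every annotated exon are shown for Psmb10 (chr8:105938445-105938642, minus strand), Psmb5 (chr14:54618023-54618245, minus strand) and Psmb6 (chr11:70525107-70525356, plus strand), because the count ratios below set inducible against constitutive catalytic genes. They read 5′ to 3′ towards the gene, and capitals mark a match to the antioxidant element.
Psmb10: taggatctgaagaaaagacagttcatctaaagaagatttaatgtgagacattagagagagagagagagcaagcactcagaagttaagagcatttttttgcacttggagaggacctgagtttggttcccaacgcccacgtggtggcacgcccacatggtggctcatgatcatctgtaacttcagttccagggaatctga
Psmb5: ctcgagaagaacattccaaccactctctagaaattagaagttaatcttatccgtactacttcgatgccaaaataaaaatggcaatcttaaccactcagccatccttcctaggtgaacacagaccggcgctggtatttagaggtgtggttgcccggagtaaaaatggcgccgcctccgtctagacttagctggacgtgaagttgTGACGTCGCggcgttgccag
Psmb6: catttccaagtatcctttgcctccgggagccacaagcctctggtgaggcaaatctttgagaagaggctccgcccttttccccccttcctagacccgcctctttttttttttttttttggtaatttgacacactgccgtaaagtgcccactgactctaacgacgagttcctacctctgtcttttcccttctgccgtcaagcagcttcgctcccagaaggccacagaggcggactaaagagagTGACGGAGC

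The antioxidant core began 47 bases before the start of Psmb5 and 9 bases before that of Psmb6. It was found in 13.3% of the 45 member promoters and in 12.4% of all 32851 promoters. The gamma-activated site was found in 6.67% of member promoters and 8.30% of all, and Psmb8 held one (TTCCCAGAA) beginning 97 bases before its RefSeq start. The interferon-stimulated core was found in 11.1% of member promoters, those of Psmb3, Psmd4, Psmd9, Psme1 and Psmg4, and in 3.44% of all. No match to any of the 3 motifs was found in the windows of Psmb9 and Psmb10, which says only that these letters are not in those windows. A promoter was present for 42 of the 50 genes, some with more than 1 start.

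Reads of Psme2 and its copy Psme2b can hardly be told apart. Their coding sequences in GENCODE M21 (GRCm38), both 720 bases long, are equal at 99.31% of positions, differ at 5 and share a run of 311 bases. Psme2 lies in 11 exons on chromosome 14, with its coding part between 55587485 and 55590889 on the minus strand. Psme2b lies in 1 exon on chromosome 11, within exons of 9930111J21Rik1 on the same strand.

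Expression levels per length were compared first, as CPM per kilobase of exon (mean ± SD over 12 libraries). The length was the union of all annotated exons of a gene, which can exceed that of the transcript expressed, so the order of genes depends on it. Psme1, the alpha subunit of PA28, was highest at 156 ± 18.4, above every other member in its lowest library (132). The next was Psmd4, the ubiquitin receptor of the 19S base, at 50.2 ± 6.67, then Psmb6 at 47.1 ± 10.3, Psmb8 at 47.0 ± 9.00 and Psmc3 at 46.5 ± 6.80. These 4 differed by less than their spread. The inducible Psmb8 was thus well above its constitutive counterpart Psmb5, which stood at 9.11 ± 3.99. The reverse order was seen for beta1, where Psmb9 was at 7.45 ± 3.58 and Psmb6 at 47.1 ± 10.3. For beta2, Psmb10 at 20.7 ± 7.59 and Psmb7 at 13.1 ± 3.29 overlapped. Before division by length (1705 and 3421 bases) their mean CPM were in the opposite order, at 35.2 and 44.8. Exons of Psmb9 overlap those of Tap1 on the opposite strand, so its level is uncertain as well. Psme2 was at 41.1 ± 8.26 and Psme3, which forms the nuclear PA28 gamma ring, at 21.6 ± 4.11. At the bottom were Psma8 (0.436 ± 0.492), and Psmb11 with 1 count in 1 library. Near-identical copies of at least 95% identity over 200 bases exist for 10 members (Psma3, Psma4, Psma5, Psmb3, Psmb5, Psmc1, Psmd2, Psmd11, Psme2 and Psme2b), whose levels are therefore uncertain.

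The vector comparison was made with edgeR's quasi-likelihood test on all 13221 genes that passed the low-count filter, of which 49 were members (all but Psmb11). A gene was called when its Benjamini-Hochberg adjusted p was below 0.05. Over both experiments 4 of the 49 members were called, which is 8.16%, against a background of 17.2% of all genes tested (6.78% higher and 10.4% lower). The inducible beta2 gene Psmb10, the assembly chaperone gene Psmg2 and the copy Psme2b rose with AdTGFb1, and the constitutive beta1 gene Psmb6 fell. At an unadjusted p below 0.05 the counts were 4 higher and 4 lower. The share of all genes at that threshold was not taken, so these counts cannot be set against it. The median log2 fold change of the 49 members was -0.08, and that of all genes tested was 0.00. Fold changes are relative to scaling factors (TMM) that assume most genes alike: on library totals without them the all-gene median becomes 0.165 over both experiments, 0.214 in experiment 1 and 0.0963 in experiment 3, and the 897 higher and 1374 lower genes become 1582 and 918. On that scale Psmb8 (edgeR adjusted p = 0.03904) and Psmb9 (edgeR adjusted p = 0.04165) were called higher too.

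Psmb10 stood at 22.7, 24.3 and 13.9 CPM in the AdCL libraries of experiment 1 and at 39.2, 30.7 and 41.8 CPM in the AdTGFb1 libraries. The values of experiment 3 were 38.8, 27.4 and 40.0 CPM with AdCL and 64.3, 44.6 and 35.0 CPM with AdTGFb1. The groups were apart in experiment 1 and overlapped in experiment 3. The log2 fold change over both experiments was 0.65 ± 0.20 (SE, edgeR adjusted p = 0.03097). The call did not hold when AdCL DC 9 or 944 or AdTGFb1 DC 14, 54 or 954 was left out (adjusted p up to 0.0912), nor with a term for sex (0.09202) or for endothelial markers (0.09944).

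Psmb9 was at 10.0, 11.6 and 13.9 CPM with AdCL and at 26.3, 24.2 and 31.3 CPM with AdTGFb1 in experiment 1. In experiment 3 it was at 41.1, 24.5 and 32.8 CPM with AdCL and at 54.7, 37.1 and 19.5 CPM with AdTGFb1. Every AdTGFb1 library of experiment 1 was thus above every AdCL library of that experiment, while in experiment 3 the AdTGFb1 group held both the highest and the lowest library. Over both experiments the log2 fold change was 0.68 ± 0.26, and it did not pass (edgeR adjusted p = 0.08379). Psmb9 shares exon sequence with Tap1 on the opposite strand. Tap1, a subunit of the peptide transporter, rose by 0.64 ± 0.15 (edgeR adjusted p = 0.006103).

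Psmb8 was at 119, 107 and 133 CPM with AdCL and 157, 171 and 154 CPM with AdTGFb1 in experiment 1, and at 171, 146 and 204 CPM against 198, 194 and 152 CPM in experiment 3. The groups were apart only in experiment 1. The log2 fold change over both experiments was 0.24 ± 0.12 (edgeR adjusted p = 0.2054).

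The PA28 genes had smaller differences. Psme1 was at 311.2, 308.3 and 309.9 CPM with AdCL and 374, 326 and 355 CPM with AdTGFb1 in experiment 1. The experiment 3 values were 333, 353 and 436 CPM with AdCL and 386, 356 and 291 CPM with AdTGFb1, and the groups overlapped. Its log2 fold change was 0.03 ± 0.11 (edgeR adjusted p = 0.8845). Psme2 ran from 49.95 to 98.8 CPM with AdCL and from 57.4 to 89.8 CPM with AdTGFb1, with a log2 fold change of 0.04 ± 0.16 (edgeR adjusted p = 0.9079). Psme3 was at 69.8, 65.4, 90.8, 62.6, 55.8 and 65.7 CPM with AdCL and at 65.3, 61.5, 76.5, 48.1, 56.1 and 46.4 CPM with AdTGFb1, overlapping groups that differed by -0.22 ± 0.13 on the log2 scale (edgeR adjusted p = 0.2886). Psme4, which encodes the PA200 activator, differed by -0.05 ± 0.14.

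Psme2b was counted at 1.34, 0.398 and 1.12 CPM with AdCL and at 8.56, 3.37 and 2.96 CPM with AdTGFb1 in experiment 1. The levels in experiment 3 were 4.52, 3.83 and 6.17 CPM with AdCL and 14.0, 12.2 and 12.4 CPM with AdTGFb1. The AdTGFb1 libraries were above the AdCL libraries of their own experiment in both experiments. That order held for 18.8% of all genes tested in experiment 1 and for 11.5% in experiment 3. The log2 fold change was 1.86 ± 0.45 (edgeR adjusted p = 0.007317), and the call held without any 1 of the 12 libraries. It rests on 4 to 205 reads a library. When the counts of Psme2 and Psme2b were summed the log2 fold change was 0.15 ± 0.16 (edgeR adjusted p = 0.5789). The overlapping gene 9930111J21Rik1 differed by 0.53 ± 0.39 (edgeR adjusted p = 0.4105).

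**Figure D1:**
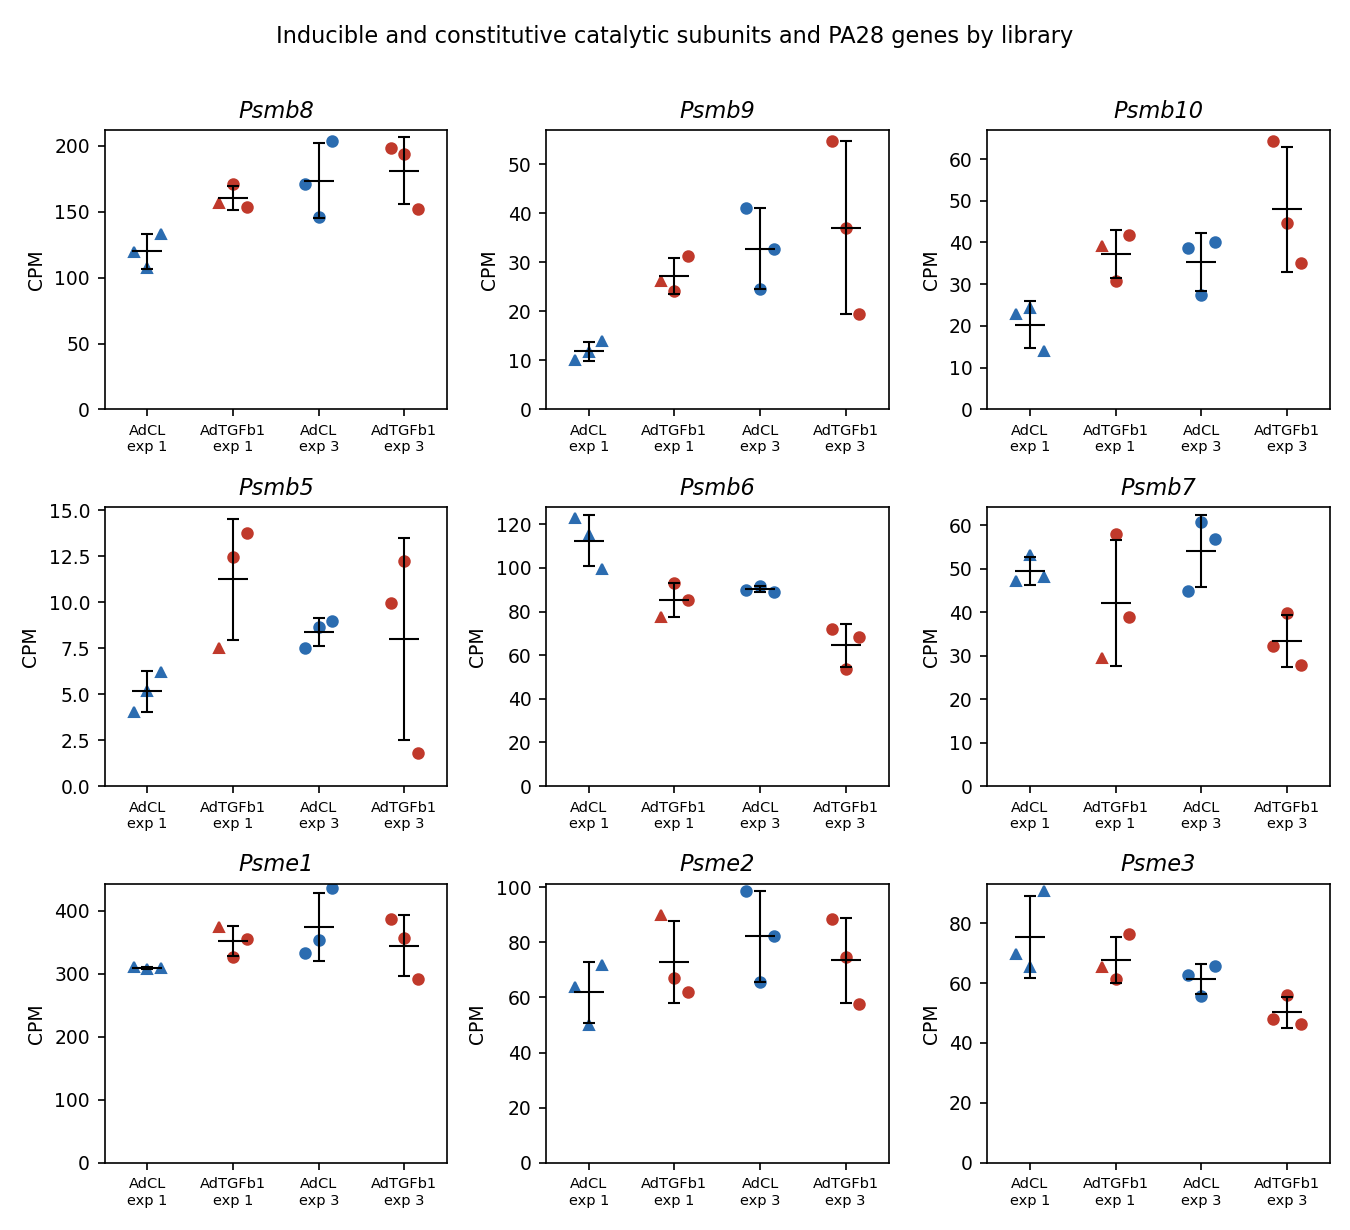
CPM of the inducible catalytic genes (top row), their constitutive counterparts (middle row) and 3 PA28 genes (bottom row) in the 12 libraries, by vector and experiment. Points are libraries (triangles male, circles female), bars are the mean ± SD of 3 libraries; Psmb9 and Psmb10 are apart between vectors in experiment 1 and overlap in experiment 3, and Psmb6 is lower with AdTGFb1 in both.

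Among the constitutive catalytic genes, Psmb6 carried the call. It stood at 123, 115 and 99.7 CPM with AdCL and at 77.6, 92.9 and 85.1 CPM with AdTGFb1 in experiment 1, and at 90.0, 91.7 and 88.9 CPM against 72.1, 53.5 and 68.2 CPM in experiment 3. Within each experiment the AdTGFb1 group lay wholly below the AdCL group, as for 21.6% of all genes tested in experiment 1 and 12.9% in experiment 3. Of the 6 AdTGFb1 libraries 5 lay below every AdCL library of both experiments, for which no share of all genes was taken. The log2 fold change was -0.44 ± 0.12 (edgeR adjusted p = 0.01454). Without AdCL DC 7 the adjusted p was 0.0537, and on library totals without scaling factors it was 0.142.

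Psmb7 was at 47.2, 53.2 and 48.2 CPM with AdCL and 29.5, 57.9 and 38.9 CPM with AdTGFb1 in experiment 1, and at 44.8, 60.7 and 56.9 CPM against 32.3, 39.8 and 27.9 CPM in experiment 3. The groups overlapped in experiment 1 and were apart in experiment 3, and the log2 fold change of -0.47 ± 0.18 did not pass (edgeR adjusted p = 0.08323). Psmb5 was at 4.03, 5.17 and 6.23 CPM with AdCL and 7.50, 12.5 and 13.8 CPM with AdTGFb1 in experiment 1. The experiment 3 libraries held 7.50, 8.63 and 8.98 CPM with AdCL and 9.98, 12.2 and 1.81 CPM with AdTGFb1. AdTGFb1 DC 956 was the lowest of all 12 libraries for Psmb5, and the log2 fold change of 0.53 ± 0.43 did not pass (edgeR adjusted p = 0.4545).

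A ratio of 2 genes in the same library removes library scaling. Each inducible beta gene was set against the constitutive gene it replaces, and Psme1 and Psme2 were each set against Psme3. In 5 such log2 count ratios, the vector labels were exchanged within each experiment in all 400 ways (exact permutation test, two-sided, smallest possible p 0.005). The ratio of Psmb10 to Psmb7 was -1.05, -1.13 and -1.78 with AdCL and 0.41, -0.91 and 0.10 with AdTGFb1 in experiment 1. It was -0.21, -1.15 and -0.51 with AdCL and 0.99, 0.17 and 0.33 with AdTGFb1 in experiment 3. The AdTGFb1 libraries were above the AdCL libraries of their own experiment in both, and 5 of 6 were above every AdCL library. The mean difference was 1.15, 1.19 in experiment 1 and 1.12 in experiment 3 (exact permutation p = 0.005, adjusted over the 5 ratios p = 0.025).

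The ratio of Psmb9 to Psmb6 was -3.61, -3.30 and -2.83 with AdCL and -1.56, -1.94 and -1.44 with AdTGFb1 in experiment 1. In experiment 3 it was -1.13, -1.90 and -1.44 with AdCL and -0.40, -0.53 and -1.81 with AdTGFb1, where DC 956 lay within the AdCL range. The mean difference was 1.09 (exact permutation p = 0.015, adjusted p = 0.0375), 1.60 in experiment 1 and 0.58 in experiment 3. The call was lost when any 1 library other than AdCL DC 943 and AdTGFb1 DC 956 was left out (exact permutation adjusted p up to 0.0875). For Psmb10 to Psmb7 it was lost without AdCL DC 7, 8 or 9 or AdTGFb1 DC 954 (0.05 at most). Within 1 experiment, 3 libraries against 3 cannot give a p below 0.1.

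The ratio of Psmb8 to Psmb5 went in opposite directions, with a mean difference of -0.67 in experiment 1 and 0.53 in experiment 3 (-0.07 over both, exact permutation p = 0.9). The highest ratio, 6.37, belonged to AdTGFb1 DC 956, which held 30 reads of Psmb5. The ratios of Psme1 and Psme2 to Psme3 differed by 0.25 each (exact permutation p = 0.07 and 0.135, adjusted p = 0.1167 and 0.1688). Psmb7 overlaps exons of Nek6, and Psme1 overlaps exons of Emc9, in both cases on the opposite strand. The same holds for Psmc3 with Slc39a13, Psmd1 with Htr2b, Psmd13 with Sirt3 and Psmc3ip with Mlx, and reads of such pairs cannot be told apart unless they were counted by strand, which the sources used here do not give.

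**Figure D2:**
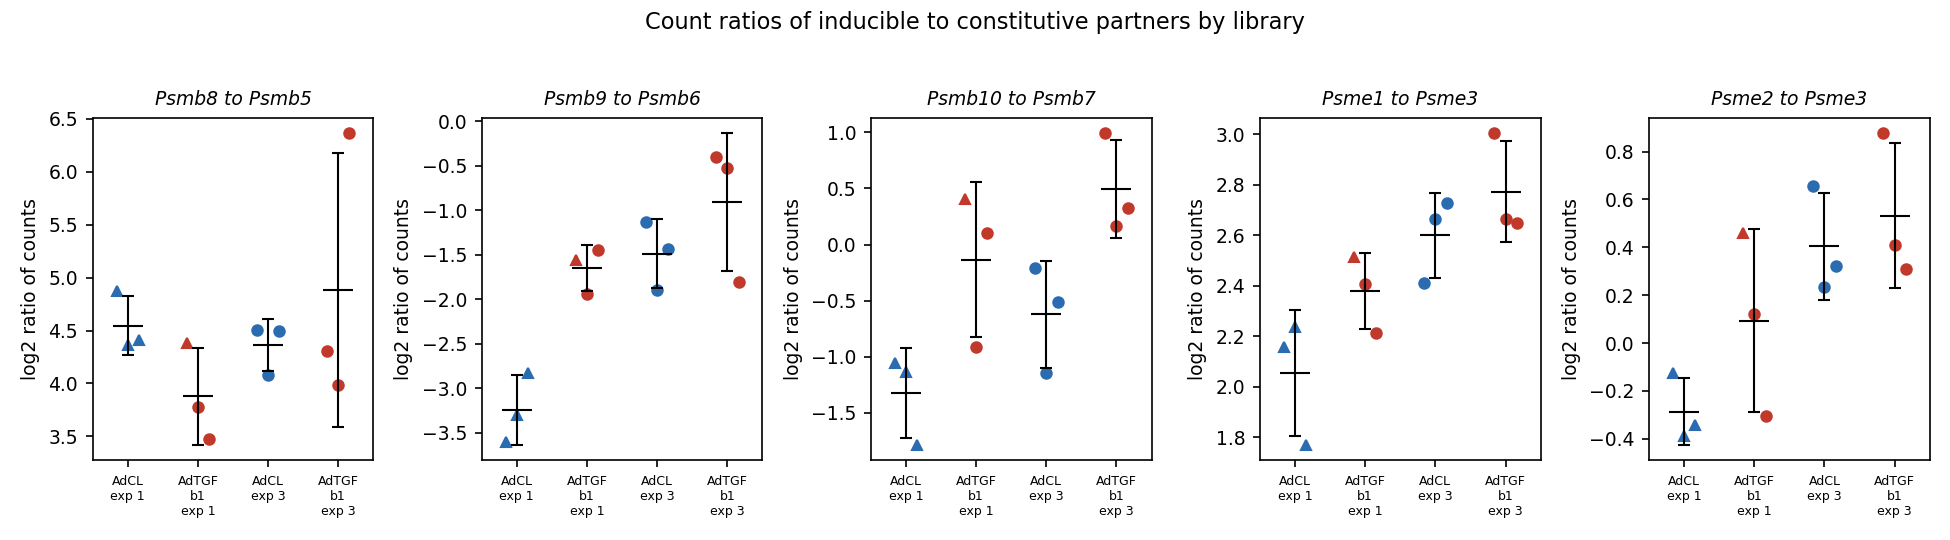
Log2 ratio of the counts of an inducible beta gene to its constitutive counterpart, or of Psme1 or Psme2 to Psme3, in each of the 12 libraries, by vector and experiment (points are libraries, triangles male, bars mean ± SD of 3). The ratio of Psmb10 to Psmb7 is higher with AdTGFb1 in both experiments, by 1.19 and 1.12.

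Within experiment 1, 5 members were called, or 10.2% of 49, against a background of 24.7%. The immunoproteasome genes Psmb9 (1.20 ± 0.32, edgeR adjusted p = 0.009133) and Psmb10 (0.87 ± 0.27, edgeR adjusted p = 0.02241) rose, as did Psme2b (2.37 ± 0.66, edgeR adjusted p = 0.01076). The 19S lid gene Psmd11 and Psmf1, which encodes the inhibitor PI31, fell. All 5 immunoproteasome and PA28 genes had positive log2 fold changes, with a median of 0.42, against -0.03 for all genes tested. That median was 0.66 on library totals without scaling factors, and 0.04 with a term for endothelial markers, where 2 of the 5 were negative. Groups did not overlap, with AdTGFb1 higher, for Psmb8, Psmb9, Psmb10 and Psme1, 4 of 5, and the same held for 18.8% of all genes tested. The call for Psmb9 held without any 1 library, but not with a term for sex (edgeR adjusted p = 0.108) or for endothelial markers (edgeR adjusted p = 0.9213). In this experiment the fit with the sex term called 9.8% of all genes, and that with the endothelial term 0.0227%. All 3 AdCL libraries of experiment 1 were male, and AdTGFb1 DC 14 was the only male of its group. With the sex term this contrast therefore rests on AdTGFb1 DC 14, and sex and vector can hardly be told apart. Endothelial sums were 332 to 864 CPM in the AdCL group and 82.6 to 115 CPM in the AdTGFb1 group. Endothelial markers and vector can therefore hardly be told apart here either. Fits with that term cannot decide whether a call or a median of experiment 1 holds. The call for Psmb10 did not hold without AdCL DC 9 or AdTGFb1 DC 14 or 54 (adjusted p up to 0.0852), nor with the sex term (0.1176) or the endothelial term (0.9443). That for Psme2b did not hold without AdTGFb1 DC 14 (edgeR adjusted p = 0.0862) or with the endothelial term (0.9184).

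Psmf1 was at 26.5, 32.0 and 20.6 CPM with AdCL and 11.5, 12.2 and 15.5 CPM with AdTGFb1 in experiment 1. For experiment 3 the values were 19.4, 17.7 and 12.3 CPM with AdCL and 13.7, 16.2 and 11.6 CPM with AdTGFb1, with overlapping groups. The log2 fold change was -1.01 ± 0.33 in experiment 1 (edgeR adjusted p = 0.02608) and -0.25 ± 0.32 in experiment 3 (edgeR adjusted p = 0.7633), a difference of 0.76 ± 0.46 that did not pass (edgeR adjusted p = 0.3649). Psmd11 was at 78.3, 64.9 and 93.5 CPM with AdCL and 40.2, 57.0 and 58.7 CPM with AdTGFb1 in experiment 1, apart by -0.60 ± 0.21 on the log2 scale (edgeR adjusted p = 0.04331). In experiment 3 it lay between 38.3 and 60.4 CPM in both groups. The calls were lost for Psmf1 without AdCL DC 7 or 8 or AdTGFb1 DC 14 or 52 (adjusted p up to 0.121) and with the term for sex (0.1417) or for endothelial markers (0.9122). They were lost for Psmd11 without AdCL DC 7, 9, 944 or 949 or AdTGFb1 DC 14, 52 or 54 (up to 0.216) and with the endothelial term (0.5045), and on library totals without scaling factors neither was called (0.08752 for Psmf1 and 0.2388 for Psmd11). The limits given above for the sex and endothelial terms in experiment 1 hold for these calls too.

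Within experiment 3 the members that passed were 20S alpha genes, and they fell. Of the 49 members 2 were called, or 4.08%, against a background of 6.43% (1.97% higher and 4.46% lower), and none was called higher (DESeq2 also called 0 higher). At an unadjusted p below 0.05 there were 1 higher and 6 lower, again with no share of all genes at that threshold to set them against. Psma2 was at 88.7, 69.6 and 79.7 CPM with AdCL and 60.3, 50.5 and 40.9 CPM with AdTGFb1. These groups were apart, with a log2 fold change of -0.65 ± 0.18 (edgeR adjusted p = 0.0348). Psma6 was at 58.9, 78.7 and 71.0 CPM with AdCL and 35.0, 55.0 and 32.6 CPM with AdTGFb1, again apart, with a log2 fold change of -0.77 ± 0.23 (edgeR adjusted p = 0.04293). The call for Psma2 was lost without AdCL DC 943 or 949 or AdTGFb1 DC 955 or 956 (adjusted p up to 0.196) and with the endothelial term (0.261), and that for Psma6 without AdCL DC 944 or 949 or AdTGFb1 DC 54, 954 or 956 (up to 0.21).

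The whole constitutive 20S core lay on one side in experiment 3. All 14 alpha and beta genes had negative log2 fold changes, with a median of -0.45, whereas 49.8% of all genes tested were negative and their median was 0.00. This direction was not particular to the 20S core: of the 49 members 35 were negative and 14 positive (median -0.20). In the 19S particle 14 of the 17 genes were negative, with a median of -0.21. The groups did not overlap for 7 of the 14 constitutive 20S genes (Psma2, Psma3, Psma6, Psmb1, Psmb3, Psmb6 and Psmb7), against 12.9% of all genes tested. Summed over the 14 genes, AdCL libraries held 765, 790 and 833 CPM and AdTGFb1 libraries 644, 641 and 517 CPM. In experiment 1 the sums were 725, 798 and 731 CPM with AdCL and 721, 880 and 808 CPM with AdTGFb1, and the median log2 fold change was 0.15, with 9 of 14 positive. It was 0.25 without AdCL DC 8, 0.41 with the endothelial term, and 0.39 on library totals without scaling factors, where 13 of 14 were positive. The limit given above for the endothelial term in experiment 1 holds for the 0.41 too. In experiment 1 the AdTGFb1 group lay wholly above the AdCL group for 6 of the 14 (Psma1, Psma2, Psma4, Psma7, Psmb2 and Psmb5), against 18.8% of all genes tested, and wholly below it for Psmb6, against 21.6%. AdTGFb1 DC 956 was the lowest of the 12 libraries for 9 of the 14 genes. Without it 13 of the 14 values were negative and the median was -0.32, and without AdCL DC 943 12 of the 14 were negative (median -0.48). On library totals without scaling factors 13 of 14 were negative, with a median of -0.35, and neither Psma2 (edgeR adjusted p = 0.09005) nor Psma6 (edgeR adjusted p = 0.07502) was called. The sums of the 3 inducible beta genes were 251, 198 and 277 CPM with AdCL and 317, 275 and 206 CPM with AdTGFb1 in experiment 3, overlapping, and 152, 143 and 161 CPM against 222, 226 and 227 CPM in experiment 1, apart.

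**Figure D3:**
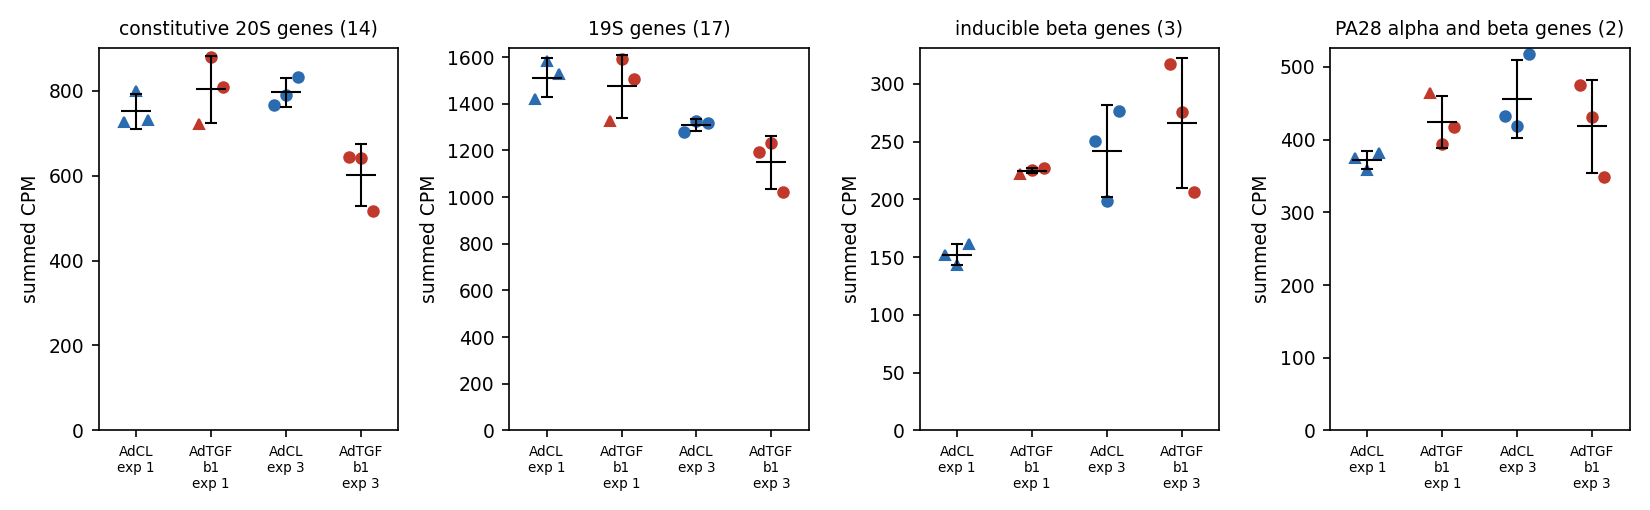
Summed CPM of the 14 constitutive 20S genes, the 17 genes of the 19S particle, the 3 inducible beta genes and the 2 genes of PA28 in each library (points, triangles male; bars mean ± SD of 3). The 20S sums are lower with AdTGFb1 in experiment 3 (517 to 644 against 765 to 833 CPM), and the inducible sums are higher with AdTGFb1 in experiment 1 (222 to 227 against 143 to 161 CPM).

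Whether the vector effect differed between the experiments was tested with an interaction term. Of the 49 members 1 was called, or 2.04%, against a background of 6.02% (3.43% positive and 2.59% negative). This was Psma2, whose difference of effects was -0.95 ± 0.26 (edgeR adjusted p = 0.03155). In experiment 1 Psma2 had been higher with AdTGFb1, at 72.7, 91.4 and 78.7 CPM against 66.2, 63.0 and 68.3 CPM, and the groups were apart in the opposite order to experiment 3. The call was lost without AdCL DC 8, 943 or 949 or AdTGFb1 DC 52, 54, 955 or 956 (adjusted p up to 0.0944). With a term for sex or for endothelial markers no member was called, in fits that called 1.19% and 0.0227% of all genes. The males and the highest endothelial sums all belong to experiment 1, so these 2 fits cannot decide whether the interaction holds.

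For all 14 constitutive 20S genes the effect in experiment 3 minus that in experiment 1 was negative, with a median of -0.53. Over all genes tested 48.7% were negative. The shift was not particular to the 20S core: of the 49 members 40 were negative and 9 positive (median -0.36). All 7 assembly chaperone genes were negative (median -0.78), as were 11 of the 17 genes of the 19S particle (median -0.16). With a term for sex, or with one for endothelial markers, 11 of the 14 constitutive 20S genes were negative (median -0.41 and -1.01). The limit given above for these terms holds for the medians too. The 5 immunoproteasome and PA28 genes were negative too (median -0.40), and none of them passed. With the endothelial term 2 of the 5 were negative and their median turned to 0.28. Without such a term the largest difference among the 5 was that of Psmb9, at -1.02 ± 0.45 (edgeR adjusted p = 0.1956).

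**Figure D4:**
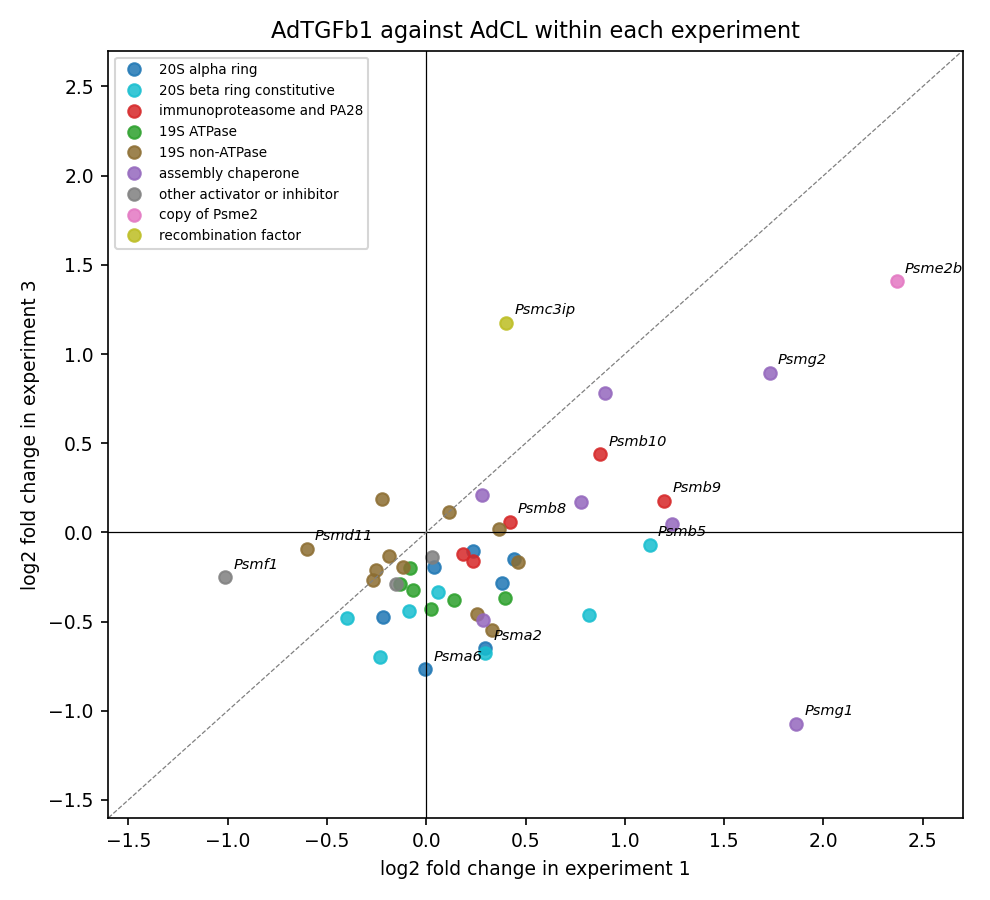
Log2 fold change of AdTGFb1 against AdCL in experiment 1 (horizontal axis) and experiment 3 (vertical axis) for 48 tested members (Psma8 is left out), coloured by class, with the line of equal effects dashed. All 14 constitutive 20S genes lie below 0 on the vertical axis and below the dashed line.

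The 19S particle had no called gene over both experiments. Of its 17 genes 13 had negative log2 fold changes, between -0.35 and 0.19, with a median of -0.14, and on library totals without scaling factors 6 were negative with a median of 0.03. Without AdCL DC 949, 10 of the 17 were negative and the median was -0.08; with a term for sex 15 were negative (median -0.27). The smallest p-values among its ATPases were those of Psmc3 (107 to 148 CPM with AdCL, 93.8 to 144 CPM with AdTGFb1, -0.14 ± 0.11) and Psmc6 (63.4 to 97.5 CPM against 51.9 to 86.9 CPM, -0.21 ± 0.14). The groups overlapped for both. Psmd1, a scaffold of the 19S base, was at 170, 209, 187, 153, 118 and 155 CPM with AdCL and 144, 166, 165, 133, 130 and 105 CPM with AdTGFb1. Its log2 fold change of -0.23 ± 0.11 did not pass (edgeR adjusted p = 0.1832). Summed over the 17 genes, the AdTGFb1 libraries of experiment 3 (1193, 1232 and 1021 CPM) were below the AdCL libraries (1278, 1328 and 1317 CPM), and those of experiment 1 overlapped. AdTGFb1 DC 956 was the lowest library for 12 of the 17.

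Among the assembly chaperones, which build the 20S rings and the 19S base, 6 of 7 had positive log2 fold changes over both experiments, as did 6599 of all 13221 genes tested, and 1 passed, against a background of 6.78% called higher. Psmg2, a partner of Psmg1 in the chaperone of the alpha ring, was at 1.76, 3.18 and 1.86 CPM with AdCL and 5.45, 9.59 and 7.56 CPM with AdTGFb1 in experiment 1, and at 3.27, 2.61 and 3.48 CPM against 6.28, 5.35 and 5.80 CPM in experiment 3. It was the 1 member for which every AdTGFb1 library was above every AdCL library of both experiments, which held for 1.86% of all genes tested. The reverse order was seen for 4.46% of all genes and for no member. The log2 fold change was 1.31 ± 0.44 (edgeR adjusted p = 0.04554). This call was close to the threshold: it was lost in each of the 12 fits that left out 1 library (adjusted p 0.0514 to 0.131), without the low-count filter (0.1198), with a term for sex (0.2178) and with one for endothelial markers (0.1544).

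Psmd10, the 19S chaperone gankyrin, was at 2.17, 7.56 and 6.42 CPM with AdCL and 12.7, 15.0 and 10.5 CPM with AdTGFb1 in experiment 1, and overlapped in experiment 3 (0.64 ± 0.38 over both, edgeR adjusted p = 0.2824). Psmg1 was at 2.38, 2.69 and 3.16 CPM with AdCL and 10.0, 6.87 and 13.1 CPM with AdTGFb1 in experiment 1. Experiment 3 gave 2.12, 8.87 and 3.75 CPM with AdCL and 1.74, 1.68 and 3.56 CPM with AdTGFb1, so the groups overlapped there. The difference between the experiments was -2.93 ± 0.96 (edgeR adjusted p = 0.06913). Psmd5, Psmd9, Psmg3 and Psmg4 did not pass in any vector comparison.

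**Figure D5:**
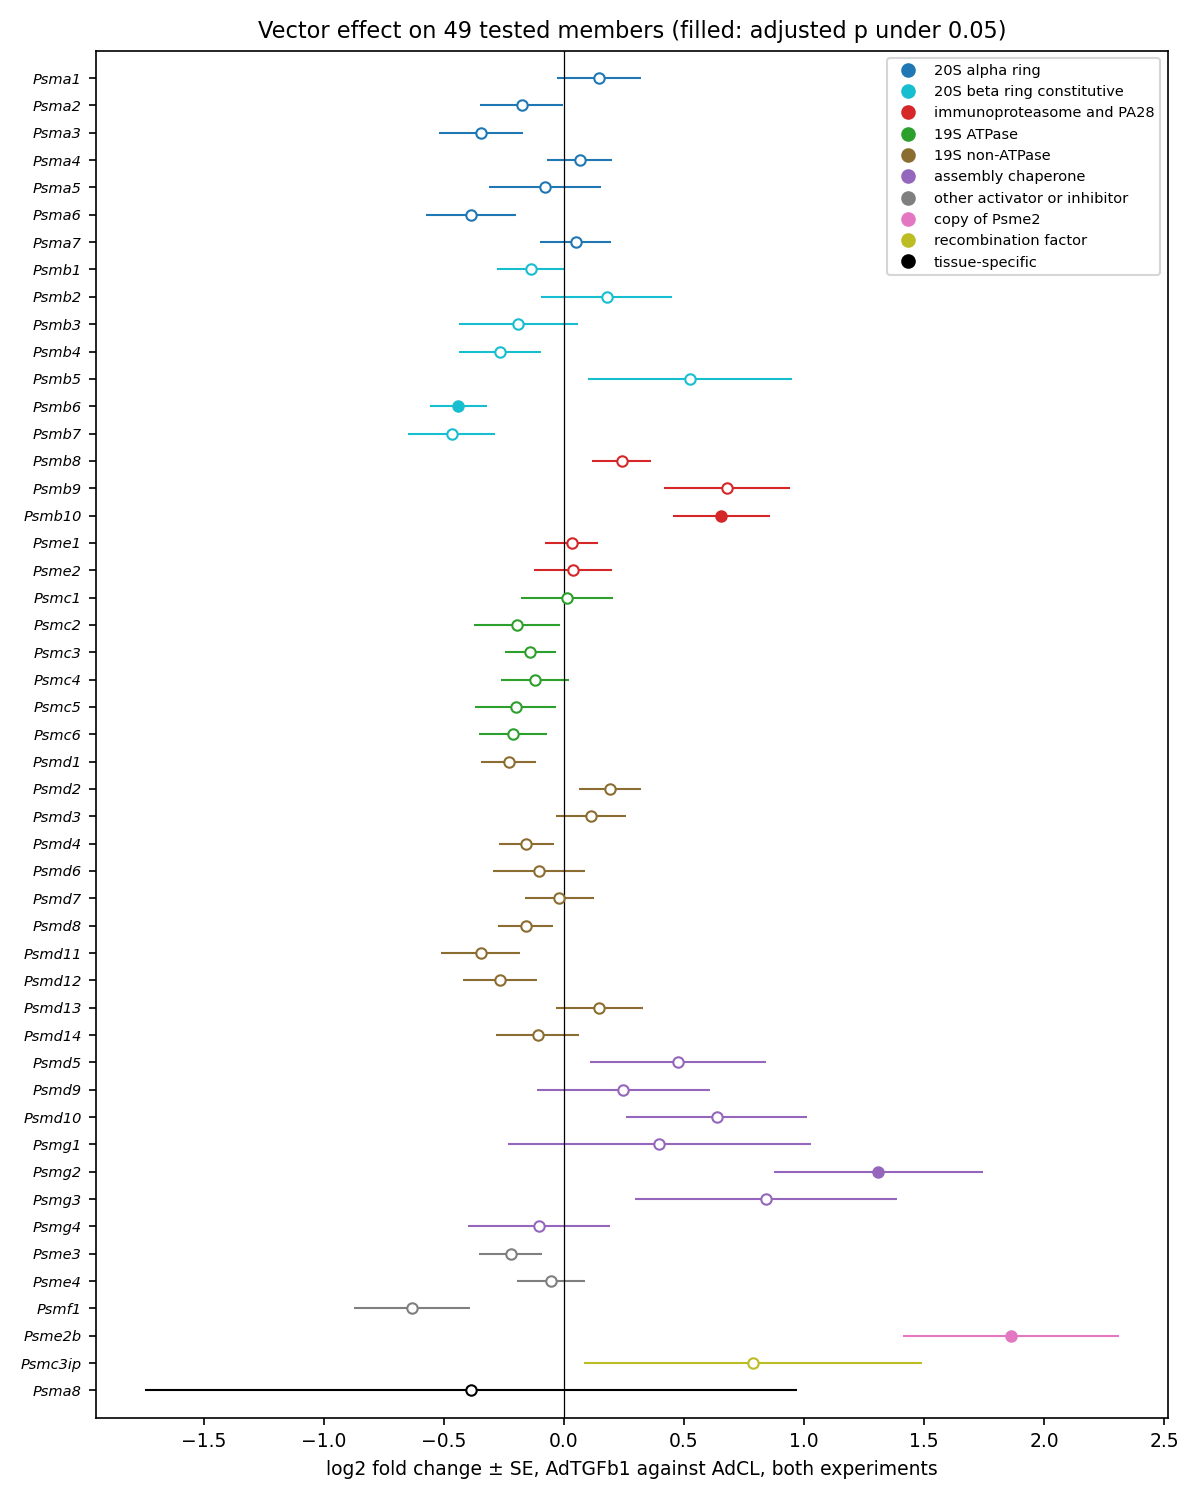
Log2 fold change ± SE (horizontal axis) of AdTGFb1 against AdCL over both experiments for each of the 49 tested members (rows, coloured by class). Filled points passed at an adjusted p under 0.05: Psmb6 lies below 0, and Psmb10, Psmg2 and Psme2b lie above it.

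Psmc3ip, the recombination factor that shares the symbol stem, was between 0.488 and 7.99 CPM and differed by 0.79 ± 0.70. Psma8 was at 0 in 3 libraries and at 3.72 CPM at most, with a log2 fold change of -0.39 ± 1.36. Psmb11 was not tested.

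The experiments themselves differed by 4 called members (8.16%, against a background of 6.43%, of which 3.57% higher and 2.86% lower). Psmb9 (0.95 ± 0.26, edgeR adjusted p = 0.03745) and Psme2b (1.83 ± 0.45, edgeR adjusted p = 0.01928) were higher in experiment 3, and the 19S genes Psmd1 (-0.39 ± 0.11, edgeR adjusted p = 0.04741) and Psmd8 (-0.61 ± 0.11, edgeR adjusted p = 0.003603) were lower. Psmd8 was at 186, 189, 163, 136, 178 and 159 CPM in experiment 1 and at 127, 118, 101, 99.5, 121 and 96.2 CPM in experiment 3. All 17 genes of the 19S particle had negative values in this comparison (median -0.27, against 49.2% negative over all genes tested; 15 of 17 without AdTGFb1 DC 52), and all 5 immunoproteasome and PA28 genes had positive values (median 0.35). The call for Psmd1 was lost in each of the 12 fits that left out 1 library (adjusted p 0.051 to 0.12). That for Psmb9 was lost in 9 of them, those without AdCL DC 7, 8, 9, 943, 944 or 949 or AdTGFb1 DC 14, 52 or 954 (up to 0.105), and those for Psmd8 and Psme2b held in all 12. The 4 male libraries all belong to experiment 1. With a term for sex Psmd8 was still called (edgeR adjusted p = 0.01825), while Psmb9 (0.4944), Psme2b (0.08134) and Psmd1 (0.1561) were not.

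Other genes of the pathway outside the symbol rule were read from listed sets, over both experiments. Among the proteasome factors Ddi2, the protease that activates the proteasome gene regulator Nfe2l1, rose by 0.68 ± 0.13 (edgeR adjusted p = 0.0016). All 6 AdTGFb1 libraries were above every AdCL library for Ddi2, which held for 1.86% of all genes tested. The Nfe2l1 gene itself differed by 0.05 ± 0.12 (edgeR adjusted p = 0.8052). The shuttle factor Rad23b (-0.39 ± 0.11) and Zfand5 (-0.34 ± 0.11) fell. Of 12 genes of peptide supply and class I loading 4 rose and none passed lower, against 6.78% and 10.4% of all genes tested. These were the aminopeptidase genes Lap3 (1.15 ± 0.23, all 6 libraries above every AdCL library, again against 1.86% of all genes tested) and Erap1 (0.56 ± 0.14), Tap1, and the loading factor Tapbp (0.39 ± 0.12). The gene next to Psmb8 on the other side, Tap2, differed by 0.39 ± 0.15 (edgeR adjusted p = 0.08182). Within experiment 1, 4 of these 12 genes were called higher and 1 lower, against 10.6% and 14.1% of all genes tested. The lower gene was the class I gene H2-D1 (-0.45 ± 0.14, edgeR adjusted p = 0.01758). Within experiment 3 none of the 12 was called, against 6.43% of all genes tested.

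A further list held genes for interferon receptors, their kinases and transcription factors that induce the immunoproteasome. The transcription factors Irf8 (1.16 ± 0.12) and Irf2 (0.49 ± 0.16) rose, while the kinases Jak2 (-1.17 ± 0.10) and Jak1 (-0.39 ± 0.12) and the receptor gene Ifnar1 (-0.43 ± 0.10) fell. Irf1 differed by 0.06 ± 0.19 in experiment 1 (edgeR adjusted p = 0.8666) and by 0.89 ± 0.20 in experiment 3 (edgeR adjusted p = 0.006073), and the difference between these effects was 0.83 ± 0.27 (edgeR adjusted p = 0.0729).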

How the data were processed

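RNA of CD11b DCs was sequenced as 12 libraries. The deposited values are raw read counts per gene. Per the submitters' processing notes, the mouse build was mm9, and the tools named are HTSeq, DESeq2, STAR 2.5.0c, FastQC 0.11.4, cutadapt 1.9.1 and Trim Galore 0.4.1; per the labels' protocols, libraries were poly(A)-selected and stranded. The strand setting of the counting is not given in the sources used here.

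From the counts, edgeR 4.0.16 (R 4.3.3) was run with TMM scaling, filterByExpr and the quasi-likelihood F test on 13221 of 24391 genes, with the experiment as a term (both experiments) or with 1 coefficient per group (within experiments and interaction). The Benjamini-Hochberg adjustment ran over every gene tested, with calls below 0.05. Count ratios, with 0.5 added to each count, were tested by exact permutation within experiments. CPM values use TMM-scaled totals, and fold changes are fitted with edgeR's prior count of 0.125. Scripts were tested on simulated data. Exon lengths, overlaps and near-identical copies (BLAST 2.17.0) come from GENCODE M21 (GRCm38), and promoters from RefSeq (GRCm38.p6); no coordinates were converted.

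Values in every library are given for the immunoproteasome and catalytic genes, Psme3 and up to 2 members of each other class with the smallest p, and every called member is named. Psmg1 and the listed factors with values were added for their pattern. The members and lists were chosen with earlier results of these data known. Replicates differed beyond counting noise (chi-square per degree of freedom at least 23.8), so each library counts once. Alternatives were DESeq2 1.42.0, its size factors, no low-count filter, terms for sex and for endothelial markers, no experiment term, other permutations and offsets for ratios, and leaving out each library; unscaled totals and summed Psme2 and Psme2b counts were added after seeing the data. Some genes of the lists of proteasome factors and of inducers, and 1 sequence, are not reported here, so no counts are given for these 2 lists.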

Additional observations from a re-analysis of the deposited data

Results flagged for a closer look

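In 6 libraries of a vector, the highest library of a member stood apart from the rest by Dixon's criterion in 4 of 98 groups examined; chance gives about 1 in 20. These were Psme1 in AdCL DC 949 (436 CPM, next 353), Psmd3 in AdTGFb1 DC 54 (80.6 CPM, next 63.9), Psmd9 in AdTGFb1 DC 54 (14.2 CPM, next 6.87) and Psmg1 in AdCL DC 944 (8.87 CPM, next 3.75). The vector effect on Psma2 differed between the experiments in the interaction test, by -0.95 ± 0.26 on the log2 scale (experiment 3 minus experiment 1, edgeR adjusted p = 0.03155).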

How the results depend on the processing

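No paired analysis was possible because the groups share no replicate numbers. Percentages in brackets are the shares of all genes called in the same fit. Over both experiments the 3 members higher and 1 lower (17.2%) became 3 and 2 with DESeq2 (21.5%) and 1 and 3 with a term for sex (11.4%). They became 1 and 1 with a term for endothelial markers (13.6%), 1 and 0 without a term for the experiment (13.1%) and 5 and 0 on unscaled library totals (18.9%). Leaving out 1 library gave 1 to 3 higher and 0 to 2 lower. In experiment 1 the 3 higher and 2 lower (24.7%) became 6 and 2 with DESeq2 (27.3%), 1 and 1 with the sex term (9.8%) and 0 and 0 with the endothelial term (3 genes called in all). On unscaled totals they became 17 and 0 (27.6%, with 2384 of all genes higher and 1264 lower). Leaving out 1 library gave 2 to 5 higher and 0 to 2 lower in experiment 1. In experiment 3 the 2 lower (6.43%) became 1 with the endothelial term (4.98%), 0 on unscaled totals (6.26%) and 0 to 2 leaving out 1 library. The 1 negative interaction (6.02%) became 3 with DESeq2 (9.38%), 0 with the sex term (1.19%) and 0 with the endothelial term (0.0227%). It became 3 on unscaled totals (6.57%) and 0 to 2 leaving out 1 library. Between experiments (6.43%) the 2 higher became 0 with the sex term (4.14%) and 1 to 2 leaving out 1 library. The 2 lower became 4 with DESeq2 (10.1%), and 1 without the low-count filter (6.18%) or on unscaled totals (6.65%). They became 1 in each fit leaving out 1 library. The ratio of Psmb9 to Psmb6 had an adjusted p of 0.1569 with labels exchanged over all 12 libraries (difference 1.09) and was 1.60 and 0.58 in experiments 1 and 3 alone; Psmb10 to Psmb7 had 0.05411 (1.15), and 1.19 and 1.12 alone. Leaving out 1 library gave 0.96 to 1.31 and 1.02 to 1.35. Psmb8 to Psmb5 was 0.53 in experiment 3 alone and -0.44 to 0.15 leaving out 1 library. Signs turned for Psme1 and Psme2 with the endothelial term (-0.041 and -0.081), for Psmc3 and Psmd8 on unscaled totals (0.028 and 0.0070), and leaving out 1 library for Psme1 (-0.0023 to 0.13), Psme2 (-0.061 to 0.13) and Psma8 (-0.84 to 1.80); none of these values passed the test. The causes were not tested. Without the experiment term Psmb6 (edgeR adjusted p = 0.065), Psmb10 (0.1081) and Psme2b (0.08211) lost their calls.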
